A study of Mus musculus with 7 samples.

Results

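Cell division genes were examined in B cells from the spleens of wild-type FVB mice and of FVB mice carrying the Eu-miR-155 transgene. The set holds 47 genes chosen by function: mitotic cyclins and kinases, kinetochore and spindle checkpoint proteins, spindle motors, condensin and the cytokinesis machinery. A gene was represented by its brightest probe set, taken by the mean over all 7 arrays, among the probe sets whose platform annotation names that gene alone. Of the 47 genes, 46 had such a probe set, against 18193 genes on the whole array. Ccnb1, which encodes cyclin B1, had none in the annotation used here. The probe sets of Cdc25c, Foxm1, Ttk, Nuf2 and Kif4 did not pass the filter on low values, which left 41 genes for the test.

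RNA was measured on 1 array per sample, with 4 wild-type (WT) and 3 transgenic (TG) samples. In the transgenic mice miR-155, a microRNA that represses target messenger RNAs, is driven in B lineage cells by the heavy chain enhancer Eµ. B cells of both genotypes were taken from spleen with a magnetic isolation kit, and the labels give no age or sex. The design text counts mice, so each sample is taken as 1 mouse. With 7 arrays in all, their number sets the precision. Values are GCRMA values on a log2 scale, where a difference of 1 is a 2-fold change, 2.17 is the lowest value, and values that do not exceed 4 count as not above background.

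Most splenic B cells rest outside the cell cycle. A dividing cell accumulates cyclins A and B, which activate the kinase CDK1 and bring it into mitosis. Condensin then compacts the chromosomes, kinetochores attach them to spindle microtubules, and the spindle checkpoint holds the cell in metaphase until every chromosome is attached. The anaphase-promoting complex with its activator CDC20 then marks securin and cyclin B for destruction, separase opens cohesin, and the midzone proteins build the contractile ring that divides the cell. Many of these genes are transcribed only in late S phase, G2 and M phase, so their messenger RNA is a common sign of dividing cells in a sample. In bulk samples a larger share of dividing cells and more of the RNA per cell cannot be told apart.

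Before the comparison, the arrays were checked against their labels. All 11 mature B cell markers with a probe set of their own were above background on every array, among them Cd79a, a subunit of the B cell receptor, at 14.08 to 14.79. Xist, which female cells make from their silenced X chromosome, stood at 13.61 and 13.79 on WT replicates 2 and 1 and at 13.73 to 13.93 on the TG arrays, but at 2.22 and 2.81 on WT replicates 3 and 4, where the Y-linked Eif2s3y was at 9.85 and 11.10. By these genes the TG mice were all female and the WT mice were 2 of each sex, so genotype is partly confounded with sex. TG replicate 3 stood apart: all 9 T cell markers, Thy1 and Cd3d among them, were above background there, against 1 or 2 of the 9 on each other array.

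The TG samples carried more messenger RNA of most mitotic genes. Of the 41 genes tested with limma, 29 rose and 0 fell at an adjusted p under 0.05, and 12 did not pass. Among the 9517 genes tested on the array, 8.11% passed as higher and 2.56% as lower. At an unadjusted p under 0.05, 38 of the 41 were higher and 0 lower, against 20% and 11% of all genes tested. Standard errors (SE) below are those of the limma fit over the 4 WT and 3 TG arrays. The rises of the 29 genes ran from 1.07 for Incenp to 3.84 for Bub1. With values under 4 set at 4, Cdk1 had the largest, 3.48. The median change of the 41 genes was 2.49 (2.17 with values under 4 set at 4), against 0.0022 for all genes tested. A change of 1 or more was reached by 33 of the 41 genes, against 6.15% of all genes tested.

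The values of both groups were also separate. In 37 of the 41 genes every TG array lay above every WT array, against 19.5% of all genes tested. In 0 of the 41 every TG array lay below every WT array, against 10.4% of all genes tested. Cdc25b, Cenpa, Ndc80 and Smc4 overlapped. In 5 of the 41, Kif11, Kif2c, Tpx2, Hmmr and Anln, no WT array was above background in the probe set used, so that they entered the test through the TG arrays alone. For Kif11 a dimmer probe set was above background on 3 WT arrays. Among the 36 others 26 rose, and among the 28 genes above background on all 7 arrays 19 rose. Of the 36, Bub1, Cenpe, Cenpf, Aurka and Ncapg were above background on only 1 or 2 WT arrays. These genes also needed the TG arrays to pass the filter, and all of them rose. The shares of all genes tested under the same conditions were not counted.

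Within each genotype most genes ordered the arrays alike. TG replicate 3 was the highest TG array for 40 of the 41 genes, and TG replicate 1 the lowest for 38. WT replicate 1 was the highest WT array for 31 genes and WT replicate 3 the lowest for 26. In 26 genes WT replicates 1 and 2 both lay above WT replicates 3 and 4, the same division that Xist shows. These orders were not counted over all genes tested, so they are not shown to be particular to the mitotic genes. The mean over the 41 genes was 6.56, 6.20, 5.70 and 5.99 on the WT arrays and 7.61, 7.93 and 9.13 on the TG arrays. Even the lowest TG array therefore exceeded the highest WT array in this mean. The spread among TG arrays was larger than among WT arrays in 23 of the 29 genes that rose. This too was not counted over all genes tested, so it is not shown to be particular to the mitotic genes.

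**Figure D1:**
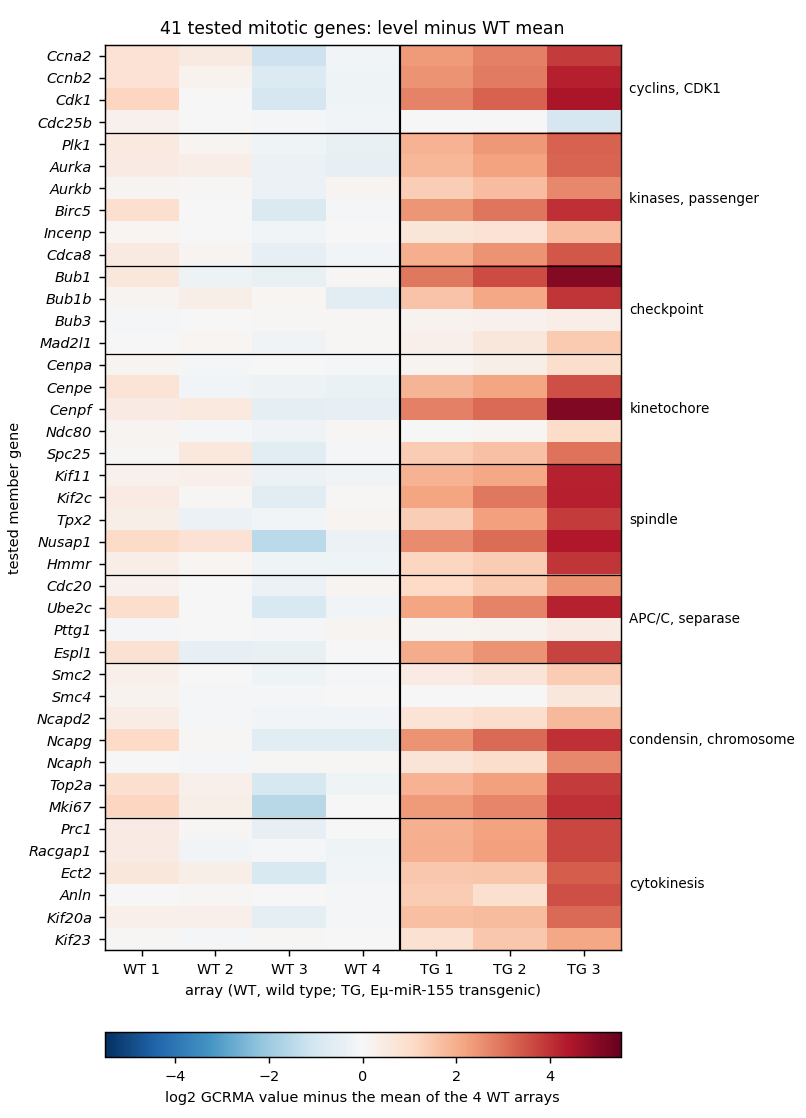
Log2 value of each of the 41 tested genes on each array, after subtraction of the mean of the 4 WT arrays, with genes in rows grouped by role and arrays in columns. The TG columns are higher than the WT columns for nearly all genes, TG 3 is the highest TG array for 40 of 41, and Cdc25b, Bub3, Pttg1 and Smc4 show small differences.

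The number of calls depended on single arrays, while the direction did not. Without WT replicate 1, 2, 3 or 4, 15, 0, 2 and 2 members passed, and without TG replicate 2 none did (0), against 25 without TG replicate 1 and 20 without TG replicate 3. Of all genes tested, 3.49%, 1.14%, 2.39% and 2.48% passed as higher without WT replicates 1 to 4, and 6.59%, 0.0426% and 5.14% without TG replicates 1 to 3. At an unadjusted p under 0.05, 36 members were higher without WT replicate 2 and 32 without TG replicate 2. With only the WT arrays of high Xist level, that is replicates 1 and 2, 0 passed (0.116% of all genes), 29 were higher at an unadjusted p under 0.05, and the median change was 2.09. Without TG replicate 3 the median was 1.93. In each of these fits all tested members but Cdc25b had a positive change. No member passed in every one of these fits.

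Isolates of the transgenic mice also held more RNA of other blood cells. The 10 granulocyte markers, with Mpo, Elane and Ctsg, had a summed log2 value of 27.1 to 35.4 on the WT arrays and 75.7 to 88.1 on the TG arrays. All 6 of those that were tested rose, 3 of them with no WT array above background. Ngp, Camp, Ltf and Lcn2 of the same list were not tested. On TG replicates 1, 2 and 3 Camp was at 6.67, 2.91 and 3.08, and Ltf at 5.15, 2.41 and 2.30. Lcn2 was at 4.00, 4.01 and 3.91 there, and Ngp at 7.68, 2.34 and 5.80. The 13 erythroid markers summed to 47.5 to 48.1 and 61.6 to 86.6, and 4 of the 7 tested rose. None of those 4 was above background on a WT array, none of the other 3 passed, and Hba-a1 stayed at the floor of 2.17 throughout. The 7 blood progenitor markers, such as Kit and Myb, summed to 25.7 to 27.6 and 40.4 to 51.4, and all 5 tested rose, 2 of them with no WT array above background. Markers of this kind passed the filter on low values through the TG arrays, where they are high, so these counts are a description. Of all genes tested, 8.11% passed as higher. The 9 T cell markers summed to 24.9 to 25.3 in WT and to 27.1, 28.2 and 71.9 on TG replicates 1, 2 and 3, with 0 of 2 tested passing. Of the 8 precursor B cell markers none was above background on any array but TG replicate 3, where 3 were, and Vpreb1 and Rag2 stayed at 2.17 on all 7.

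Lists for other cell types varied. The 7 natural killer cell markers summed to 20.9 to 21.5 in WT and 34.9 to 43.3 in TG, and the 7 dendritic cell markers to 40.3 to 42.7 and 48.8 to 58.1. The 10 macrophage markers summed to 43.3 to 54.4 and 53.3 to 67.8, and the 6 platelet markers to 38.8 to 52.9 and 60.9 to 67.0. Of the tested markers 3 of 4, 4 of 6, 1 of 5 and 2 of 6 rose. The 3 natural killer cell markers and 1 of the dendritic cell markers that rose had no WT array above background. The macrophage sums overlapped, and the macrophage gene Spic fell. Germinal centre markers, for B cells that divide quickly, summed to 41.2 to 49.6 and 55.0 to 58.9, with 3 of 8 higher and Gcnt1 lower. Plasma cell markers summed to 72.7 to 74.9 and 77.7 to 85.3, with 2 of 7 higher. The 11 mature B cell markers summed to 146.2 to 147.3 and 139.7 to 144.4, and 2 of 11 fell. Beside the counts of these short lists, 8.11% of all genes tested passed as higher and 2.56% as lower. The part of these cell types in the rise of the mitotic genes was not tested.

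**Figure D2:**
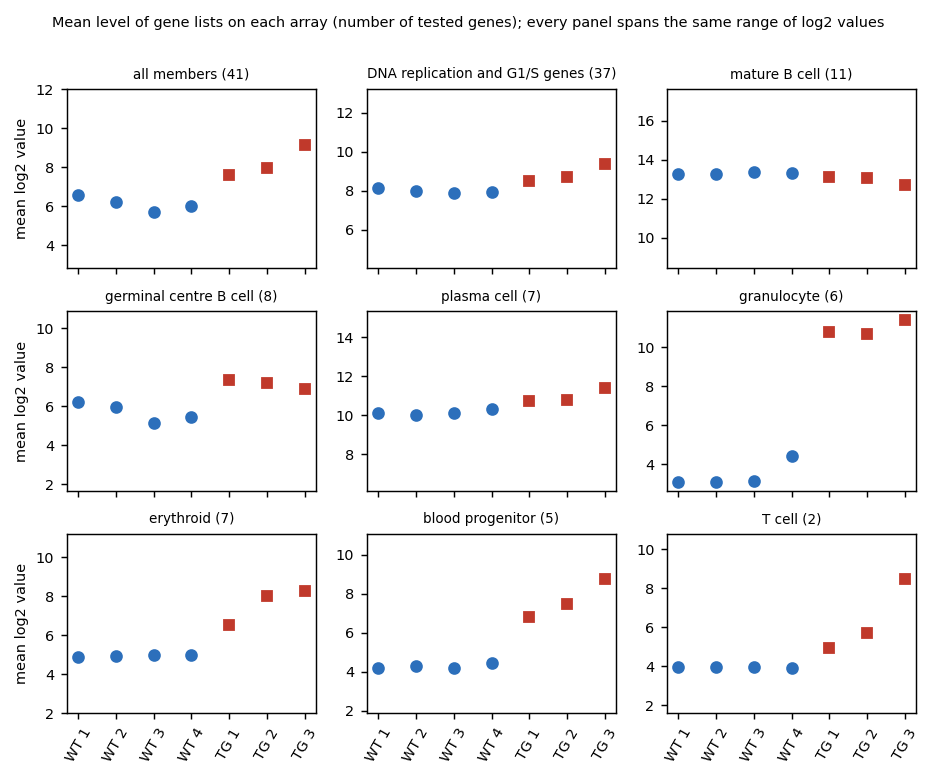
Mean log2 value over the tested genes of 9 lists on each array, with WT arrays as blue circles and TG arrays as red squares and the number of genes in brackets; each panel spans the same number of log2 units. The mitotic genes lie between 5.70 and 6.56 on the WT arrays and between 7.61 and 9.13 on the TG arrays, while granulocyte, erythroid and blood progenitor lists are also higher on every TG array and the mature B cell list is lower.

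Many mitotic genes share a promoter layout, and promoters are shown here because most members moved together. The cell cycle homology region, with the core TTTGAA or TTCGAA, is bound by the MuvB complex. That complex represses these genes in resting cells as DREAM and activates them in G2 with B-MYB and FOXM1. The box CCAAT is bound by NF-Y. RefSeq promoters of GRCm38.p6, from 250 bases before to 50 bases after the start, were found for 39 members, which have 42 such promoters. Either homology region core, on either strand, stood in 34 of the 42 (81.0%), and in 14.1% of the 9985 promoters of genes tested. CCAAT on either strand stood in 33 (78.6%), against 37.8%, and both motifs in 31 (73.8%), against 5.59%. A match of one motif can overlap a match of the other by its end bases. Members were chosen as mitotic genes, for which this layout is known, so the shares describe the set.

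Within 40 bases of the start, a window chosen after the positions were seen, a homology region core stood in 28 of 42 member promoters (66.7%) and in 3.05% of promoters of genes tested. Of its 45 matches in member promoters 21 began after the start, while of the 73 CCAAT matches 71 began before it. The promoters reach 250 bases before the start and 50 after it, so they hold more sequence before it. Bub3, Ect2 and Prc1 have overlapping promoters, so some of their matches are counted more than once. Among promoters of members that rose, 22 of 25 held a core, and among those of tested members that did not pass, 10 of 13. In the other cell division lists this share was 75.0% for condensin II (3 of 4 promoters), 62.5% for further G2 and M phase genes, 37.9% for further kinetochore subunits and 33.3% for MuvB and DREAM subunits. It was 25.0% for cohesin, 20.8% for abscission, 16.7% for subunits of the anaphase-promoting complex, 16.2% for DNA replication and 14.3% for centrosome genes. No difference between these shares was tested. A match is a description of letters and not a site.

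The 6 promoters below belong to the genes of smallest p among members that rose and hold both motifs, 5′ to 3′ on the strand of the gene. Capitals mark the homology region cores and the CCAAT boxes, read on either strand. Bub1 lies at chr2:127831810-127832109 on the minus strand, Cdca8 at chr4:124936868-124937167 (minus) and Plk1 at chr7:122159185-122159484 (plus). Racgap1 lies at chr15:99651607-99651906 (minus), Aurka at chr2:172370521-172370820 (minus) and Cenpf at chr1:189688037-189688336 (minus).
Bub1: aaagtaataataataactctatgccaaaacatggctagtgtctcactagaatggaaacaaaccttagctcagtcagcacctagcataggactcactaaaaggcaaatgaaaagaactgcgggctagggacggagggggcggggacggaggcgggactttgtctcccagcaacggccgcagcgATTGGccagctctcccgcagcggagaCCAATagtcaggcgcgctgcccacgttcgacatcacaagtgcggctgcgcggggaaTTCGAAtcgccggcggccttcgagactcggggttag
Cdca8: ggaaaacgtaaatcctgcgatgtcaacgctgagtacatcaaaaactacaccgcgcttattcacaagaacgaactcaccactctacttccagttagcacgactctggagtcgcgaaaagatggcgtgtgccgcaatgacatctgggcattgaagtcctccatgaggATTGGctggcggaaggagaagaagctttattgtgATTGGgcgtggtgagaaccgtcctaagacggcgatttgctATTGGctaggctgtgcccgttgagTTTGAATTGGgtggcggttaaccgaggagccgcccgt
Plk1: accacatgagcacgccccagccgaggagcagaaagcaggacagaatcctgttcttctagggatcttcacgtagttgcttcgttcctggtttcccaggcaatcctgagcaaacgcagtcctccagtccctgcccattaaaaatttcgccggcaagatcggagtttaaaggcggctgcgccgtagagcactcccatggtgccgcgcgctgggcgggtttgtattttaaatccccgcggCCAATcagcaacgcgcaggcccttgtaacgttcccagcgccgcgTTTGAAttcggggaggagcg
Racgap1: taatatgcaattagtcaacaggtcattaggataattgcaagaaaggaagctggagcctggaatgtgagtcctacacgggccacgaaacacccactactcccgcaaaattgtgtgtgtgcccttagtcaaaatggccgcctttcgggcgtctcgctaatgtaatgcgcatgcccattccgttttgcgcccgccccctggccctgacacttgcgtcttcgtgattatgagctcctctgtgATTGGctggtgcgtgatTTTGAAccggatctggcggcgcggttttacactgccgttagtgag
Aurka: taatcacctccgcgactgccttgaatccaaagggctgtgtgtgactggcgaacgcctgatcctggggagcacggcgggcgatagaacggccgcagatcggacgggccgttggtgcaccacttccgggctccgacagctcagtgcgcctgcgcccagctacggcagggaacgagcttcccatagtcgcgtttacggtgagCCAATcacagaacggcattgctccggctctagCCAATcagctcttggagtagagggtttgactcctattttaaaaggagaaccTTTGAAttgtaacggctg
Cenpf: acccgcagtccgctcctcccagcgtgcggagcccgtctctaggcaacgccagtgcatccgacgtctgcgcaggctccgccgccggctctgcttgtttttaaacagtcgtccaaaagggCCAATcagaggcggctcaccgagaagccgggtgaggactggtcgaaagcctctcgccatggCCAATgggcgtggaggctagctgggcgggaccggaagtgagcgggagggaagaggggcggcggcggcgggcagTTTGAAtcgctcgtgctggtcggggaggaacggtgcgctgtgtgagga
In all 6 the homology region core lies just downstream of the start, its first base from position 3 in Cenpf to position 33 in Aurka, counted from 1 at the start. The nearest CCAAT match upstream of the start begins 11 bases before it in Cdca8, 12 in Racgap1, 14 in Plk1, 19 in Aurka, 42 in Bub1 and 71 in Cenpf.

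**Figure D3:**
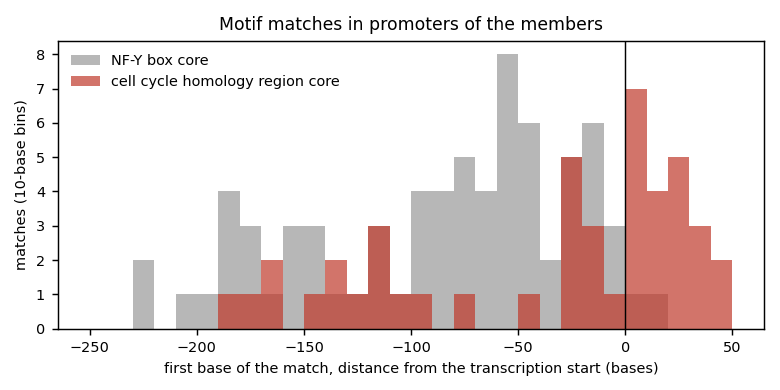
Number of motif matches in 10-base bins along the 42 member promoters, by distance of the first base from the transcription start, with the NF-Y box core in grey and the cell cycle homology region core in red. Matches of the NF-Y box lie before the start (71 of 73), while 21 of the 45 matches of the homology region core begin after it.

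Of 4 tested genes for cyclins, CDK1, which drives entry into mitosis, and its activators, 3 rose (median change of the 4, 3.09). Cdk1, the kinase itself, was at 6.61, 5.47, 4.52 and 5.20 in WT and 8.17, 8.68 and 9.94 in TG. The lowest TG array was above the highest WT array, and the change was 3.48 ± 0.59 (SE, 11.2-fold, limma adjusted p = 0.0241). Its partner Ccnb2, encoding cyclin B2, was at 6.46, 5.85, 4.91 and 5.41 on the WT arrays and 8.11, 8.51 and 9.94 on the TG arrays, a rise of 3.20 ± 0.53 (SE, adjusted p = 0.0233). Ccna2, for cyclin A2 of S and G2 phase, stood at 7.15, 6.84, 5.21 and 6.21 in WT and 8.69, 9.12 and 10.21 in TG and rose by 2.99 ± 0.55 (SE, adjusted p = 0.0283). In all 3, WT replicate 3 was the lowest array and TG replicate 3 the highest. A dimmer probe set of Ccna2 rose by 3.73.

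The phosphatases and the transcription factor of this group behaved differently or could not be measured. Cdc25b, whose product activates CDK1, was at 9.55, 9.31, 9.21 and 9.13 on the WT arrays and 9.29, 9.29 and 8.39 on the TG arrays. It was the 1 tested member with a negative change (-0.31 ± 0.24 SE, adjusted p = 0.406), its groups overlapped, and the lowest array was TG replicate 3. Cdc25c, a related phosphatase, was at 2.17 to 2.28 on 6 arrays and at 5.06 on TG replicate 3. Foxm1, which encodes a factor that activates G2 and M phase genes, was not above background on any array (2.46 to 2.68 in WT, 2.68 to 3.67 in TG). A probe set that names Foxm1 together with 2 other genes was at 5.29 to 6.20 in WT and 6.41 to 7.75 in TG (1.32, adjusted p = 0.0660). It cannot be assigned to 1 gene and was not used.

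All 6 genes of the mitotic kinases and the chromosomal passenger complex rose, with a median of 2.47. Plk1, a kinase of centrosome maturation and cytokinesis, was at 5.84, 5.43, 5.04 and 4.88 in WT and 7.22, 7.70 and 8.55 in TG, which gives 2.53 ± 0.36 (SE, 5.77-fold, adjusted p = 0.0171). Cdca8, for the passenger subunit borealin, was at 7.53, 7.20, 6.59 and 6.88 on the WT arrays and 9.05, 9.51 and 10.47 on the TG arrays and rose by 2.63 ± 0.37 (SE, adjusted p = 0.0164). Its other probe sets rose by 2.62 and 2.31. Aurka, the kinase of the spindle poles, was above background on 2 WT arrays, with 4.20, 4.13, 3.44 and 3.32 in WT and 5.59, 5.98 and 6.96 in TG. Its rise was 2.41 ± 0.38 (SE, adjusted p = 0.0215), or 2.09 with values under 4 set at 4.

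The remaining passenger genes covered a wide range of change. Birc5, encoding survivin, rose by 3.13 ± 0.50 (SE) and Aurkb, the kinase of the complex, by 1.90 ± 0.31 (SE). Incenp, the scaffold that activates Aurora B, had the smallest rise of the 29 (1.07 ± 0.25 SE, adjusted p = 0.0458). No gene of this group overlapped between the groups of arrays.

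Of 4 tested spindle checkpoint genes 2 rose and 2 did not pass (median 1.66). Bub1, a kinase that marks unattached kinetochores, was above background on 1 WT array and on every TG array. It was at 4.32, 3.42, 3.32 and 3.78 on the WT arrays and 6.62, 7.29 and 8.74 on the TG arrays. The change was 3.84 ± 0.51 (SE, adjusted p = 0.0152), or 3.47 with values under 4 set at 4. Bub1b, for the checkpoint protein BUBR1, was at 4.63, 4.82, 4.59 and 3.89 in WT and 6.06, 6.60 and 8.40 in TG and rose by 2.54 ± 0.56 (SE, adjusted p = 0.0411). WT replicate 4 was the 1 WT array not above background for it.

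The other checkpoint genes gave smaller differences. Mad2l1, for the CDC20 inhibitor MAD2, was at 9.04, 9.11, 8.83 and 9.09 on the WT arrays and 9.31, 9.63 and 10.44 on the TG arrays, a change of 0.77 ± 0.25 (SE) that did not pass (adjusted p = 0.105). Bub3, a binding partner of BUB1, was at 11.32, 11.40, 11.48 and 11.52 in WT and 11.63, 11.67 and 11.78 in TG, and its change of 0.26 ± 0.07 (SE) did not pass (adjusted p = 0.0560). In both, the groups did not overlap. Other probe sets of Bub3 had differences of 0.32, -0.03 and -0.24 and none passed, so its sign depends on the probe set. Ttk, the kinase MPS1 that starts checkpoint signalling, was not above background on any WT array (2.50 to 3.08) and was at 3.31, 3.92 and 6.04 on the TG arrays. That is at least 1.34-fold higher by the TG mean against a level of 4. TG replicate 3 was the 1 array above that level, and the gene was not tested.

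Of 5 tested kinetochore genes 3 rose and 2 did not pass (median 1.99). Cenpf, a large kinetochore protein made in G2, was at 3.94, 4.02, 2.94 and 3.04 on the WT arrays and 6.27, 6.59 and 8.59 on the TG arrays and rose by 3.67 ± 0.60 (SE, adjusted p = 0.0233). With values under 4 set at 4 its change was 3.15, since 1 WT array was above background. Cenpe, the motor that moves chromosomes to the spindle equator, was at 4.87, 3.96, 3.83 and 3.76 in WT and 5.98, 6.26 and 7.65 in TG and rose by 2.53 ± 0.46 (SE, adjusted p = 0.0276; 2.42 so set). Spc25, a subunit of the NDC80 complex that holds microtubules, was at 4.79, 5.30, 4.10 and 4.65 on the WT arrays and 6.10, 6.32 and 7.69 on the TG arrays and rose by 1.99 ± 0.44 (SE, adjusted p = 0.0422).

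Not all subunits of that complex gave the same result. Ndc80 itself was at 6.57, 6.37, 6.25 and 6.50 in WT and 6.44, 6.54 and 7.43 in TG, so that TG replicates 1 and 2 lay inside the WT range. Its change was 0.38 ± 0.25 (SE, adjusted p = 0.326), and 0.07 without TG replicate 3. Nuf2, its partner subunit, was at 2.17 to 2.29 in WT and at 3.42, 4.50 and 6.69 in TG, at least 1.82-fold higher against a level of 4, and was not tested. Cenpa, the histone variant of centromeres, was at 9.36, 9.11, 9.21 and 9.16 on the WT arrays and 9.36, 9.53 and 10.17 on the TG arrays, where TG replicate 1 equalled the highest WT array. Its change of 0.48 ± 0.19 (SE) did not pass (adjusted p = 0.157), and a second probe set had a difference of -0.14. The difference between Ndc80 and Spc25 was not tested.

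Of 5 tested spindle motors and assembly factors 4 rose (median 2.75), and in the probe sets used 4 of the 5 were not above background on any WT array. Kif2c, which depolymerises microtubules at kinetochores, was at 3.87, 3.47, 2.82 and 3.47 in WT and 5.56, 6.32 and 7.69 in TG. With no WT array above background it was at least 5.76-fold higher by the TG mean against a level of 4 (limma adjusted p = 0.0226). Its next brightest probe set was at 2.81 to 3.01 in WT and at 3.55, 3.67 and 6.37 in TG, and was not tested. Kif11, the motor that separates the spindle poles, was at 3.93, 3.95, 3.37 and 3.49 on the WT arrays and 5.60, 5.81 and 7.90 on the TG arrays and rose by 2.75 ± 0.56 (SE, adjusted p = 0.0343), or 2.44 with values under 4 set at 4. Nusap1, which bundles spindle microtubules, was at 5.65, 5.40, 3.14 and 4.28 in WT and 7.21, 7.68 and 9.04 in TG. WT replicate 3 was below background, and the rise was 3.36 ± 0.71 (SE, adjusted p = 0.0381).

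Of the other spindle genes 1 rose. Tpx2, the activator of Aurora A, rose and was at least 3.38-fold higher (adjusted p = 0.0424). Hmmr, a spindle pole protein, was at 3.91, 3.67, 3.33 and 3.33 on the WT arrays and 4.74, 4.96 and 7.48 on the TG arrays, at least 3.31-fold higher, and did not pass (adjusted p = 0.0857). Kif4, the chromosome-arm motor, was at 3.02 to 3.03 in WT and at 3.04, 4.20 and 6.10 in TG, so that TG replicate 1 was at the WT level. It was not tested. In Hmmr and Kif4 TG replicate 3 stood well above the other TG arrays. Other probe sets of Kif11 had differences of 2.60 and 0.74 and did not pass (adjusted p = 0.0558 and 0.306). The last of these was at 3.73 to 4.67 in WT, so Kif11 was not below background throughout and no lower bound is given for it.

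Of 4 regulators of anaphase 3 rose, and securin did not pass (median 2.21). Espl1, encoding separase, was at 5.80, 4.54, 4.56 and 5.002 in WT and 7.01, 7.45 and 8.68 in TG and rose by 2.74 ± 0.47 (SE, adjusted p = 0.0248). Ube2c, the ubiquitin-conjugating enzyme of the complex, was at 6.92, 5.97, 5.13 and 5.83 on the WT arrays and 8.13, 8.70 and 10.21 on the TG arrays and rose by 3.05 ± 0.59 (SE, adjusted p = 0.0313). Cdc20, its mitotic activator, was at 8.87, 8.63, 8.33 and 8.79 in WT and 9.74, 10.11 and 11.13 in TG, a rise of 1.67 ± 0.33 (SE, adjusted p = 0.0320), and its second probe set rose by 1.67. Pttg1, for securin, the inhibitor of separase, was at 10.08, 10.20, 10.11 and 10.33 on the WT arrays and 10.33, 10.36 and 10.63 on the TG arrays. The TG values lay above the WT values by a small margin (0.26 ± 0.10 SE, adjusted p = 0.136), and its other probe sets had differences of 0.29 and -0.14.

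Of 7 genes of condensin and mitotic chromosomes 4 rose and 3 did not pass (median 1.43). Ncapg, a non-SMC subunit, was at 5.38, 4.31, 3.68 and 3.69 in WT and 6.72, 7.39 and 8.28 in TG and rose by 3.20 ± 0.53 (SE, adjusted p = 0.0233). Ncapd2, another, rose by 1.18 ± 0.28 (SE, adjusted p = 0.0474). Its other tested probe set had a difference of 0.16 that did not pass (adjusted p = 0.353). Ncaph, the subunit that links the ring, was at 5.22, 5.11, 5.31 and 5.31 on the WT arrays and 5.94, 6.19 and 7.88 on the TG arrays, a change of 1.43 ± 0.45 (SE) that did not pass (adjusted p = 0.0938). Its WT arrays lay within 0.20 of each other, while the TG arrays spanned 1.95.

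The ATPase subunits of condensin did not pass. Smc2 was at 9.81, 9.52, 9.29 and 9.46 in WT and 9.97, 10.22 and 10.92 in TG, with separate groups and a change of 0.85 ± 0.24 (SE, adjusted p = 0.0717). Smc4 was at 12.24, 11.91, 11.98 and 12.004 on the WT arrays and 12.04, 12.03 and 12.66 on the TG arrays. TG replicates 1 and 2 lay within the WT range, and the change was 0.21 ± 0.17 (SE, adjusted p = 0.423). In each gene 3 probe sets were tested and none passed.

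Chromosome proteins used as proliferation markers rose. Mki67, encoding the Ki-67 antigen that coats mitotic chromosomes, was at 8.51, 7.65, 5.80 and 7.38 in WT and 9.66, 10.003 and 11.36 in TG. The WT arrays were widely spread, by 2.72, and the rise was 3.004 ± 0.69 (SE, 8.02-fold, adjusted p = 0.0461). Against WT replicates 1 and 2 alone it was 2.26. Top2a, the topoisomerase that untangles sister chromatids, was at 7.93, 7.30, 6.15 and 6.79 on the WT arrays and 8.96, 9.29 and 10.87 on the TG arrays and rose by 2.66 ± 0.58 (SE, adjusted p = 0.0397).

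Of 6 cytokinesis genes 4 rose and 2 did not pass (median 2.15). Racgap1, a subunit of centralspindlin, was at 5.51, 4.92, 4.98 and 4.80 in WT and 7.07, 7.29 and 8.74 in TG and rose by 2.65 ± 0.41 (SE, adjusted p = 0.0211). Prc1, which bundles midzone microtubules, was at 5.53, 5.18, 4.63 and 5.06 on the WT arrays and 7.05, 7.33 and 8.77 on the TG arrays and rose by 2.62 ± 0.43 (SE, adjusted p = 0.0234). Kif20a, a midzone motor, was at 4.98, 4.98, 4.14 and 4.64 in WT and 6.35, 6.42 and 7.79 in TG and rose by 2.17 ± 0.40 (SE, adjusted p = 0.0285). Kif23, the motor subunit of centralspindlin, rose by 1.48 ± 0.28 (SE) from WT values within 0.18 of each other.

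Ect2 and Anln of the same group did not pass. Ect2, the exchange factor that activates RHOA at the midzone, was at 4.97, 4.63, 3.50 and 4.19 on the WT arrays and 5.81, 5.86 and 7.67 on the TG arrays. Its change of 2.13 ± 0.55 (SE) missed the threshold (adjusted p = 0.0597), though the groups did not overlap. Anln, an actin-binding scaffold of the ring, was at 3.21, 3.26, 3.20 and 3.14 in WT and 4.59, 4.06 and 6.73 in TG. It was not above background in WT, was at least 2.19-fold higher in TG, and did not pass (adjusted p = 0.0909).

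**Figure D4:**
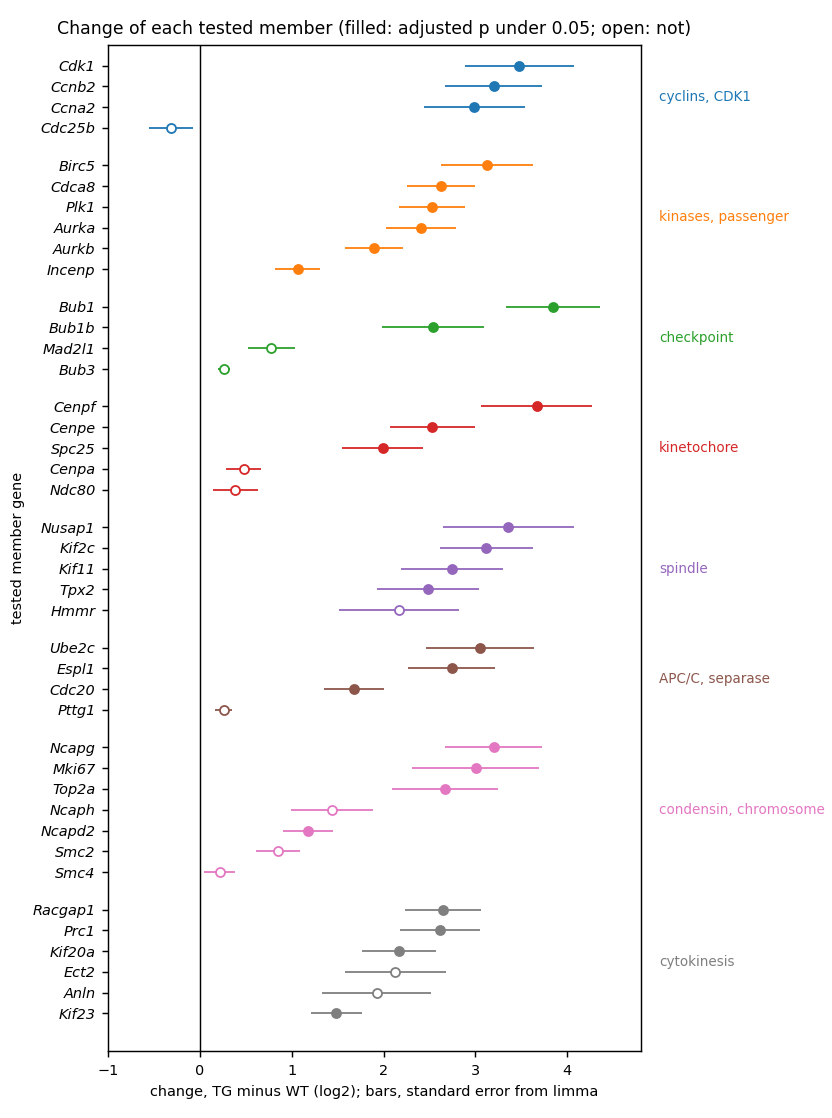
Change of each tested gene (TG minus WT, log2) with its limma standard error as a bar, grouped by role; filled points passed an adjusted p under 0.05 and open points did not. All 29 filled points lie between 1.07 and 3.84, and the 1 point below 0 is Cdc25b at -0.31.

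Different probe sets of a gene mostly gave the same sign. Of 19 members with more than 1 tested probe set, 16 had 1 sign in all of them, and Bub3, Cenpa and Pttg1 did not. All 16 further tested probe sets of genes that rose had a positive change, and 10 of them passed. Those that did not pass belonged to Kif11 (2.60 and 0.74), Incenp (0.38), Kif23 (0.998), Ncapd2 (0.16) and Top2a (1.52). None of the 27 further tested probe sets passed as lower, beside 2.56% of all genes tested. Some entered the test through the TG arrays alone, such as 1 of Kif11, so their sign is no separate support. Of 107 member probe sets, 26 were not above background on any array, among them probe sets of Bub1, Nusap1 and Top2a.

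Other genes of cell division were read from lists drawn up by function. Of 33 tested genes of G2 and M phase, 12 rose and 0 fell, with a median change of 1.44. Of these, 5 had no WT array above background and entered the test through the TG arrays. Among the other 28, 8 rose (median 1.21), against 8.11% of all genes tested. That share also covers genes with no WT array above background. Of the 28, Aspm, Cdca2 and Cit were above background on only 1 or 2 WT arrays and also needed the TG arrays to pass the filter. Aspm and Cdca2 are among the 8 that rose. Ckap2, a spindle protein, was at 2.30 to 2.50 in WT and 4.59, 4.93 and 6.35 in TG, at least 2.45-fold higher (adjusted p = 0.0163). Cks2, a small CDK1-binding protein, was at 9.02, 8.97, 8.98 and 8.92 on the WT arrays and 10.20, 10.61 and 11.37 on the TG arrays and rose by 1.75 ± 0.25 (SE, adjusted p = 0.0175). Of 22 further kinetochore subunits 4 rose, 0 fell and 18 did not pass (median 0.29). Zwint, which anchors the ROD complex, rose by 0.81 ± 0.11 (SE, adjusted p = 0.0169), and Spc24, the partner of Spc25, by 2.61 ± 0.40 (SE, adjusted p = 0.0201) with 1 WT array above background. With values under 4 set at 4 the change of Spc24 was 2.07.

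Subunits of machines that cells hold throughout the cycle gave medians near 0. None of 16 subunits of the anaphase-promoting complex and its cofactors passed (0 called; median 0.13), and Anapc10 had the smallest p (0.21, adjusted p = 0.0891). Of 11 cohesin genes 0 rose and 1 fell. That was Nipbl, the cohesin loader, at 11.72, 11.70, 11.60 and 11.61 in WT and 11.33, 11.47 and 11.32 in TG (-0.29 ± 0.06 SE, adjusted p = 0.0341), and the list's median was -0.10. With any 1 array left out Nipbl no longer passed. Of 23 centrosome and microtubule nucleation genes 0 passed (median -0.04), with Haus8 closest at 0.95 (adjusted p = 0.130). Of 17 abscission and actomyosin genes Septin9 rose by 0.94 ± 0.15 (SE, adjusted p = 0.0215) and Chmp4b by 0.37 ± 0.06 (SE, adjusted p = 0.0241), and 15 did not pass (median -0.01). That share of 11.8% is near the 8.11% of all genes tested.

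The 3 condensin II genes had a median of 1.18 and 0 passed, with Ncapg2 at 1.73 (adjusted p = 0.0704). Among 11 subunits of the MuvB, B-MYB and DREAM complexes Tfdp1, the partner of E2F factors, rose by 1.45 ± 0.23 (SE, adjusted p = 0.0222) and 10 did not pass. A share of 1 in 11 is near the 8.11% of all genes tested. Mybl2, for B-MYB, was not above background on any array (3.89 to 3.90). Over these lists 19 of 136 genes rose and 1 fell, against 8.11% and 2.56% of all genes tested, and at an unadjusted p under 0.05, 48 were higher and 4 lower, against 20% and 11%. Without WT replicates 1, 2, 3 and 4 in turn 9, 0, 4 and 1 passed as higher, and without TG replicate 2 none did (0). Among 37 DNA replication and G1/S genes 13 rose (35.1%, against 8.11% of all genes tested) and 0 fell, with a median change of 0.76. In 2 of the 13 no WT array was above background. Whether the mitotic genes changed more than these lists was not tested.

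**Figure D5:**
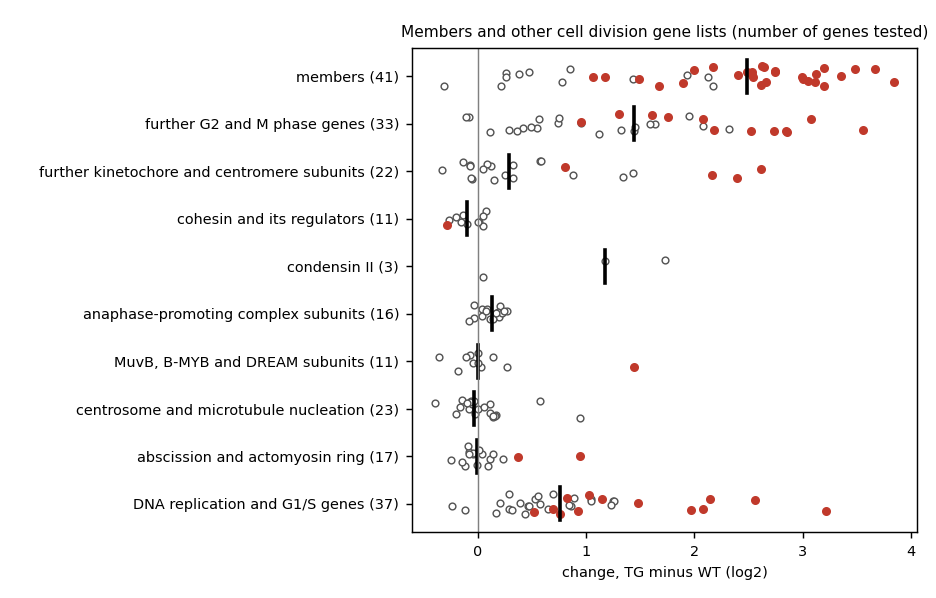
Change of each tested gene (TG minus WT, log2) in the mitotic set and in 9 other cell division lists; red points passed an adjusted p under 0.05, open points did not, and black bars are medians. The medians are 2.49 for the mitotic set, 1.44 for further G2 and M phase genes and 0.76 for DNA replication genes, and between -0.10 and 0.13 for cohesin, the anaphase-promoting complex, MuvB and DREAM, centrosome and abscission genes.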

How the data were processed

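RNA of splenic B cells from 4 WT and 3 TG samples was hybridised to 1 Affymetrix array each. The submitters' processing notes name GCRMA for the log2 values the authors deposited, with no version in the sources used here. As generally run, GCRMA subtracts background by probe sequence and quantile normalizes the arrays, so low values gather near a floor and a general shift in RNA would be removed. From these values 20994 of 45101 probe sets above 4 on at least 3 of 7 arrays were fitted with limma 3.58.1 in R 4.3.3 (TG against WT, eBayes with an intensity trend), and p-values were Benjamini-Hochberg adjusted over all of them; 64 control probe sets were left out. A call is an adjusted p under 0.05.

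A gene was its brightest probe set naming 1 gene in the platform annotation: 34945 probe sets named 1 gene, 932 several and 9160 none. All members are named. Values on each array are given for the 3 members of smallest p in each role, for those that did not pass or were not tested, and where probe sets differed in sign. Of each further list of genes the 2 called genes of smallest p in each direction are named, or the gene of smallest p. The members, lists and alternatives were chosen with earlier results of these data known. In simulated data with 100 genes changed, the fit called 83% of changes of 1 and 99% of changes of 2, with 5 false calls in each. These shares need not hold for the members, since Hmmr (2.17) and Ect2 (2.13) did not pass. A member that did not pass is therefore not shown to be unchanged. Nothing in the labels ties samples to separate cultures or cohorts beyond the count of mice, so p-values measure the spread between these samples. No scan date or other batch was used, and the alternatives tried were filters, normalization, the variance model, array weights, probe set choice, threshold, replicate block, arrays left out and Xist level.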

Additional observations from a re-analysis of the deposited data

Results flagged for a closer look

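In 2 of 52 genes checked, 1 of the 4 WT arrays lay far from the other 3. Ncapd2, a condensin subunit, was at 7.55 on WT replicate 1 and at 6.96 to 7.02 on the others, and its change was 1.18, or 1.32 without that array. Its limma adjusted p moved from 0.0474 to 0.0666. Spc24, a subunit of the NDC80 complex, was at 4.33 on WT replicate 1 and at 3.22 to 3.33 on the others, where it was not above background. Its change was 2.61, or 2.07 with values under 4 set at 4. Without that array no WT value is above background, and its adjusted p moved from 0.0201 to 0.0310. Chance marks about 1 in 20 groups in this way.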

How the results depend on the processing

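Direction held across the alternatives: of 830 values of single members under an alternative, 507 kept their call, 309 no longer passed, 13 newly passed and 1 reversed. That 1 was Smc4, at -0.0047 with TG replicate 3 and WT replicate 4 both left out. Of 224 values of named genes from the further lists, 143 kept their call, 78 no longer passed, 3 newly passed and 0 reversed. Of all genes tested, 7.33% to 19.3% passed as higher in the fits of the next sentence. The count of members called higher, 29, ranged from 24 to 37 with a filter at 6, values under 4 set at 4, renewed quantile normalization, other variance models, array weights and other probe set choices. It was 0 with no filter (38 of 46 at an unadjusted p under 0.05), at an adjusted p under 0.01 (38 of 41), with those 2 arrays left out (32 of 36), with only the WT arrays of high Xist level (29 of 41) and with the Xist level as a covariate (32 of 41), where 0.116% to 1.44% of all genes passed as higher. Genes of the further lists called higher, 19, numbered 0 with no filter, at the threshold of 0.01, with high-Xist WT arrays and with the covariate, 2 with both arrays left out and 44 with array weights. Genes of those lists called lower, 1, numbered 5 with array weights, 3 with the mean of probe sets and 0 with each of the others just named. Of all 9517 genes tested, 1835 passed as higher and 928 as lower with array weights. With the mean of probe sets 367 passed as lower. With 1 array left out, 0 to 25 members and 0 to 18 genes of the further lists were called higher and 0 of the latter lower, and the median change ranged from 1.93 to 2.77. It was 1.77 with both arrays left out. With the replicate number as a block and WT replicate 4 left out, 0 members (33 at an unadjusted p under 0.05) and 0 genes of the further lists in either direction were called. Deviations of arrays of the same number had correlations of -0.04, -0.14 and -0.29, and those of different numbers -0.17 to 0.26. With so few arrays these values cannot show whether the numbers pair the mice. The cause of these changes in count was not tested. Probe sets near 4 limit what low members can show.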
